A study of Mus musculus with 3 samples.

Results

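The genes described here are 10 regulators of alternative splicing in mouse prostate tumors, chosen by name out of 46095 gene symbols counted (Srrm4, Ptbp1, Ptbp2, Ptbp3, Esrp1, Esrp2, Rbfox2, Mbnl1, Celf1 and Celf3). No cutoff on a measured value was used, but the choice was made with earlier results of these data known. All 10 had a row in the deposited table and passed the filter on low counts. Tumor RNA was sequenced as 2 libraries from Phf8-KO TRAMP mice, named Phf8-KO1 and Phf8-KO2, and 1 library from TRAMP mice that were wild type for PHF8, all taken at 37 weeks of age. TRAMP mice (C57BL/6) carry a transgene that drives a viral oncoprotein in the prostatic epithelium, and both groups carried it. Phf8-KO males came from Phf8 knockout females crossed with TRAMP males, and Phf8 lies on the X chromosome. Each library pools RNA of 3 mice, so spread between single animals was averaged out before sequencing. Nothing says that the Phf8-KO pools hold separate sets of mice, and p-values measure the spread between these libraries only.

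A tissue-specific splicing program is set by a small number of RNA-binding proteins. SRRM4 makes neurons include very short exons, PTBP1 keeps neuronal exons out of messages in most other cells, and ESRP1 and ESRP2 switch exons to their epithelial form. RBFOX, MBNL and CELF proteins act in many tissues, and MBNL1 and CELF1 oppose each other on exons of striated muscle. In human prostate cancer, SRRM4 is known from tumors that take on neuroendocrine features. The counts used here are sums over whole genes, so they give the level of each regulator and not which exons were used.

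Of the 10 regulators, Ptbp1 lay furthest above TRAMP and Celf3 furthest below it in both Phf8-KO pools. Ptbp1 was 2.31 times as abundant in the Phf8-KO pools as in TRAMP, while Celf3 was 11.6 times as abundant in TRAMP as in the Phf8-KO pools. Rbfox2 had a log2 fold change of 0.72, and Srrm4, at 29 counts or fewer in each library, had -1.39. Ptbp2, Ptbp3, Esrp1, Mbnl1 and Celf1 had log2 fold changes from -0.21 to 0.24, and Esrp2 lay above TRAMP in 1 pool and below it in the other. A gene was called where edgeR's quasi-likelihood p, adjusted by Benjamini and Hochberg over 18216 genes, was under 0.05 and the fold was over 2 or under 0.5. None of the 10 members was called, against 0.0384% of all genes tested. Before adjustment, 1 member was lower (Celf3) and 2 were higher (Ptbp1 and Rbfox2) with p under 0.05 in that test, against 12.2% and 14.9% of all genes. DESeq2, at the same thresholds, called 1 member lower (Celf3) and 1 higher (Ptbp1), against 4.59% and 9.42% of the genes it tested, and limma-voom called 0 genes. In 4 members both Phf8-KO pools lay below TRAMP and in 5 both lay above it, against 42.8% and 40.8% of all genes, so the members lay apart from TRAMP about as often as genes in general. The median log2 fold change was 0.11 over the 10 members and 0.01 over all genes tested.

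**Figure D1:**
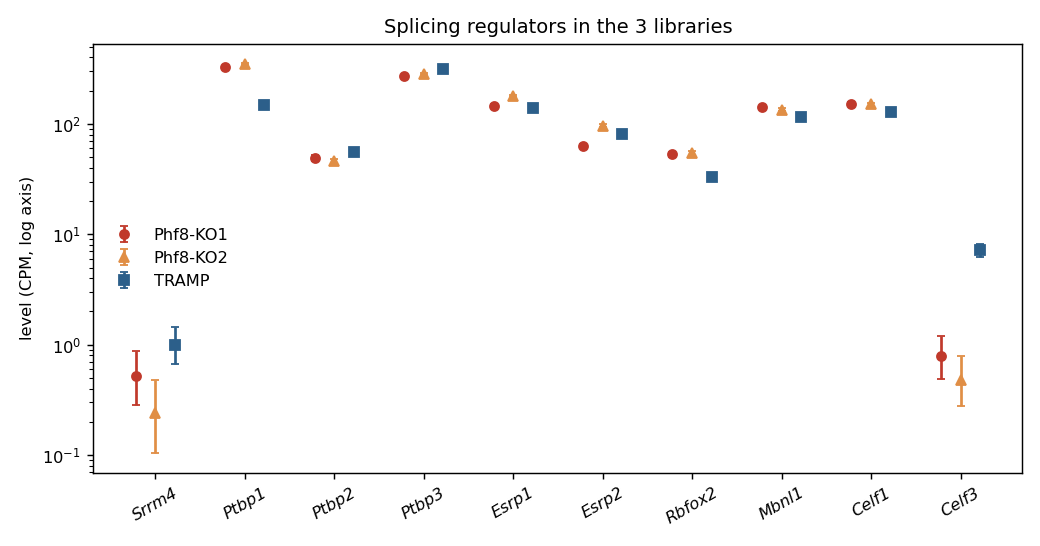
Level of the 10 splicing regulators in CPM (log axis) in Phf8-KO1 (circles), Phf8-KO2 (triangles) and TRAMP (squares), each 1 pool of 3 mice, with exact 95% counting intervals as bars. Celf3 lies at 0.788 and 0.483 CPM in Phf8-KO tumors and at 7.16 CPM in TRAMP, and Ptbp1 at 329 and 347 CPM against 147 CPM.

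The promoters of Ptbp1 and Celf3 are shown because these genes stood furthest from TRAMP in each direction. The RefSeq promoter table (GRCm38.p6) held 6 of the 10 members, and the 250 bases before the annotated start were read from it, 5′ to 3′ on the plus strand for both genes. Capitals mark a CACGTG word in Ptbp1 and a CAGCTG word in Celf3, both E-box words that basic helix-loop-helix factors are known to bind.
Ptbp1 promoter, chr10:79854182-79854431: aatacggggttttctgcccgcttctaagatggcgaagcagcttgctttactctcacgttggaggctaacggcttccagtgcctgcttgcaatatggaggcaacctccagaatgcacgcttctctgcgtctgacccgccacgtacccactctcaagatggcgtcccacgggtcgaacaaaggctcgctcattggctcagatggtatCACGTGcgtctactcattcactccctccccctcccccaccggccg
Celf3 promoter, chr3:94478045-94478294: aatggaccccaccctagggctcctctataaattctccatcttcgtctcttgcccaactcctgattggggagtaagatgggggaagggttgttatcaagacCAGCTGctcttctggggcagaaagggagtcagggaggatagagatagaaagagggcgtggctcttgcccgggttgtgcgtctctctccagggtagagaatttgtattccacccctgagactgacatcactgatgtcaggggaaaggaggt

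CACGTG starts 45 bases before the start of Ptbp1, and 6.02% of 32851 promoter windows of this length hold that word. CAGCTG starts 150 bases before the start of Celf3, the start nearest to the GENCODE one among 7 that the table gives, and 13.0% of the windows hold it. Both words read the same on either strand and do not overlap. Of the other members in the table, Mbnl1 held a CACGTG word, while Srrm4, Ptbp2 and Celf1 held neither word. TGTTTAC, a forkhead word searched on both strands, was in none of the 6 member windows and in 3.17% of all windows. With that share its absence from 6 windows was likely beforehand and carries little weight. RE1, the element bound by the neuronal repressor REST, was in none of the 6 member windows and in 18 of the 32851 windows. At so low a rate its absence from 6 windows was nearly certain beforehand and carries no weight. The Ptbp1 window has 17 CpG and a GC content of 57.6%, and the Celf3 window 4 CpG and 52.8%, with medians of 6 CpG and 52.4% over all windows. A word in a window is a description of the sequence, and binding was not measured.

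PTBP1 is the general polypyrimidine tract-binding protein of dividing cells. Ptbp1 spans 79854427 to 79864771 of chromosome 10 (GRCm38, like all positions here) and has up to 14 exons in GENCODE. Phf8-KO1 held 329 CPM of its message and Phf8-KO2 held 347 CPM, against 147 CPM in TRAMP (CPM are counts divided by the library size after TMM scaling, in units of 1e6). Both Phf8-KO pools lay well above TRAMP and close to each other, at 338 ± 12.5 CPM (SD, n = 2). The log2 fold change was 1.20 (standard error 0.22, edgeR adjusted p = 0.10). DESeq2 gave an adjusted p of 0.00019, and over 8 alternative tests the adjusted p ran from 0.00019 to 0.11, with 2 under 0.05. By counts alone, the ratio of Phf8-KO to TRAMP was 2.31, with a 95% counting interval of 2.24 to 2.39. In bulk tumor RNA a change in the number of cells of a type and a change in RNA per cell cannot be told apart. Beside this, 7 of 7 proliferation markers lay above TRAMP in both Phf8-KO pools, against 40.8% of all genes. Top2a was level with TRAMP in Phf8-KO2, at 166 against 163 CPM. EdgeR called 0 of the 7, with 3 higher at an unadjusted p under 0.05, against 14.9% of all genes. DESeq2 called 2 higher, against 9.42% of the genes it tested. The markers summed to 1440 and 1320 CPM in Phf8-KO tumors against 913 CPM in TRAMP, and their part in the Ptbp1 value was not tested. Exons of Ptbp1 share bases with those of Plppr3, Gm17134 and E130317F20Rik on the opposite strand. Plppr3 had 29 and 59 counts in the Phf8-KO pools and 6 in TRAMP, and E130317F20Rik had 110 and 160 counts against 118. Those counts are small beside the 8775 and 11496 counts of Ptbp1 in the Phf8-KO pools and its 4239 counts in TRAMP.

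PTBP2 is the neuronal counterpart of PTBP1, which takes over when neurons form. Ptbp2, on chromosome 3 from 119718742 to 119784466, was at 49.2 and 46.0 CPM in Phf8-KO tumors and 55.2 CPM in TRAMP. Both Phf8-KO pools lay slightly below TRAMP. The log2 fold change was -0.21 (standard error 0.18, edgeR adjusted p = 0.49), and the ratio to TRAMP was 0.859 (95% counting interval 0.807 to 0.913). PTBP1 is known to hold down Ptbp2 by skipping its exon 10, a loss that shifts the reading frame and exposes the message to decay. That exon is shown because it ties both genes together. It has 34 bases, is exon 10 of 14 in the annotated transcript it was read from, and is in 3 of 13 annotated transcripts. Capitals mark the exon, with 10 bases of its neighbours in lower case, at chr3:119724612-119724645 on the minus strand (GENCODE transcript, GRCm38).
Ptbp2 exon 10: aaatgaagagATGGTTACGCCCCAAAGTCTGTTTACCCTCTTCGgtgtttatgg

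Reads over this exon cannot be separated in a count per gene. Set against each other per kb of longest transcript, Ptbp1 was 8.55 and 9.63 times Ptbp2 in the Phf8-KO pools and 3.39 times Ptbp2 in TRAMP. The 95% counting intervals were 8.06 to 9.07 and 9.13 to 10.2 in the Phf8-KO pools and 3.20 to 3.60 in TRAMP. They do not cover the choice of length. With the union of all exons as the length, the ratios were 13.0 and 14.6 in the Phf8-KO pools and 5.14 in TRAMP. With 2 libraries against 1, an exact permutation test of such a ratio cannot fall below a p of 1 in 3, and none was run.

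PTBP3 is a further paralog, known from blood cells, and its gene lay between Ptbp1 and Ptbp2 in level per kb of longest transcript. Ptbp3, on chromosome 4 from 59471868 to 59549364, was at 274 and 284 CPM in Phf8-KO tumors and 316 CPM in TRAMP. The Phf8-KO pools lay just below TRAMP (log2 fold change -0.18, standard error 0.21, edgeR adjusted p = 0.61), at a ratio of 0.884 (95% counting interval 0.861 to 0.907). Per kb, Ptbp3 stood at 0.384 and 0.379 of Ptbp1 in the Phf8-KO pools and at 0.997 of Ptbp1 in TRAMP, a ratio whose counting interval (0.961 to 1.03) includes equality. Of the summed Ptbp level per kb, Ptbp1 took 66.6% and 67.4% in the Phf8-KO pools and 43.6% in TRAMP, Ptbp3 took 25.6% in each Phf8-KO pool and 43.5% in TRAMP, and Ptbp2 took 7.79% and 7.0% against 12.9%. The summed level was 156 and 162 CPM per kb in the Phf8-KO pools and 106 CPM per kb in TRAMP. With the union of all exons as the length, Ptbp3 was above Ptbp1 in TRAMP (a Ptbp3 to Ptbp1 ratio of 1.37) and below it in the Phf8-KO pools (0.527 and 0.519).

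**Figure D2:**
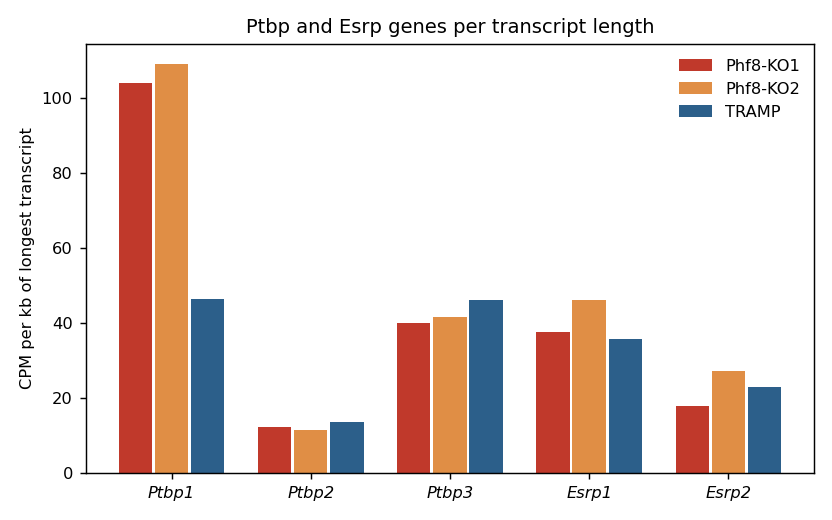
Level of the Ptbp and Esrp genes in CPM per kb of longest annotated transcript (bars, 1 pool each, no error bars) in Phf8-KO1, Phf8-KO2 and TRAMP. Ptbp1 stands at 104 and 109 CPM per kb in the Phf8-KO pools and at 46.3 CPM per kb in TRAMP, level with Ptbp3 there at 46.2 CPM per kb.

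SRRM4 promotes inclusion of neuronal microexons, and its gene lies on chromosome 5 from 116439275 to 116591817. Srrm4 had 14 and 8 counts in the Phf8-KO pools and 29 counts in TRAMP, or 0.525 and 0.241 CPM against 1.0 CPM. Both Phf8-KO pools lay below TRAMP. The 95% counting interval of Phf8-KO1 (0.287 to 0.882 CPM) overlaps that of TRAMP (0.672 to 1.44 CPM), and that of Phf8-KO2 (0.104 to 0.476 CPM) does not. By counts alone, the ratio of Phf8-KO to TRAMP was 0.367, with a 95% counting interval of 0.201 to 0.661 that covers counting error and not the spread between pools. The log2 fold change was -1.39 (standard error 0.96, edgeR adjusted p = 0.41), and no alternative test called it. Srrm3, its close relative with a like role, had 14 and 20 counts in the Phf8-KO pools and 28 in TRAMP (log2 fold change -0.77). Per kb, Srrm4 was the lowest of the 10 regulators in each library.

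Genes with a neural exon that SRRM4 is known to include were measured well above Srrm4 itself. Of the 4 listed, 0 were called by edgeR, with 0 at an unadjusted p under 0.05 and 0 by DESeq2. Rest, the repressor of neuronal genes, was at 9.31 and 11.5 CPM in Phf8-KO tumors and 7.44 CPM in TRAMP. The demethylase gene Kdm1a was at 67.5 and 75.7 CPM against 60.2 CPM, and Phf21a, a partner of KDM1A in the CoREST complex, at 43.2 and 60.1 CPM against 40.9 CPM. These 3 genes lay above TRAMP in both Phf8-KO pools, against 40.8% of all genes. They did not pass the test, with log2 fold changes of 0.48, 0.25 and 0.33 in that order. The microexon of Kdm1a is shown as an example of what such a factor acts on. Its 12 bases (capitals, at chr4:136563438-136563449 on the minus strand, GENCODE transcript, GRCm38) keep the reading frame and are in 1 of 9 annotated transcripts.
Kdm1a microexon: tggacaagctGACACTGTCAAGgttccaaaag

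CELF3 is a CELF protein known mainly from the brain, where CELF proteins regulate splicing and translation. Celf3 lies on chromosome 3 from 94478295 to 94492198. It had 21 and 16 counts in the Phf8-KO pools and 207 counts in TRAMP, or 0.788 and 0.483 CPM against 7.16 CPM. Phf8-KO libraries averaged 0.636 ± 0.216 CPM (SD, n = 2), far below TRAMP. The counting intervals do not meet, at 0.488 to 1.20 and 0.276 to 0.784 CPM in Phf8-KO tumors and 6.22 to 8.21 CPM in TRAMP. The log2 fold change was -3.49 (standard error 0.60, edgeR adjusted p = 0.10). DESeq2 gave an adjusted p of 0.0023, and over 8 alternative tests the adjusted p ran from 0.0023 to 0.11, with 2 under 0.05. By counts alone, TRAMP stood to Phf8-KO in a ratio of 11.6, with a 95% counting interval of 8.13 to 16.9. Riiad1, on the opposite strand, shares 74 exonic bases (1.35%) with Celf3 and had 6 and 20 counts in the Phf8-KO pools and 46 in TRAMP.

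Neuroendocrine and neuronal markers are given beside Celf3, a gene of neural cells. The 10 neuroendocrine markers summed to 46.1 and 26.7 CPM in Phf8-KO tumors and 172 CPM in TRAMP, and none was at 0 counts. In both Phf8-KO pools 8 of 10 lay below TRAMP, against 42.8% of all genes. EdgeR called 0 of them, with 6 lower at an unadjusted p under 0.05, against 12.2% of all genes. DESeq2 called 5 lower, against 4.59% of the genes it tested. Among them, the prohormone convertase gene Pcsk1 was at 0.225 and 0.0302 CPM in Phf8-KO tumors and 60.1 CPM in TRAMP, and the granule gene Scg2 at 0.300 and 0.0604 CPM against 13.0 CPM. Ncam1, at 29.4 and 13.9 CPM against 15.7 CPM, and Eno2, at 1.84 and 0.392 CPM against 1.80 CPM, lay above TRAMP in Phf8-KO1 and below it in Phf8-KO2. Ncam1 made up most of the summed level in both Phf8-KO pools, at 29.4 of 46.1 CPM and 13.9 of 26.7 CPM. In TRAMP it was 15.7 of 172 CPM. The 8 markers of peripheral neurons summed to 15.4 and 4.50 CPM in Phf8-KO tumors and 27.2 CPM in TRAMP. Of the 7 tested, 6 lay below TRAMP in both pools, against 42.8% of all genes. The part of these cell types in the Celf3 value was not tested.

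CELF1, which is present in most tissues, had close levels in the 3 libraries. Celf1, on chromosome 2 from 90940382 to 91019497, was at 152 and 150 CPM in Phf8-KO tumors and 129 CPM in TRAMP. The Phf8-KO pools were alike and lay just above TRAMP (log2 fold change 0.23, standard error 0.18, edgeR adjusted p = 0.46), with a ratio to TRAMP of 1.17 (95% counting interval 1.13 to 1.22). Celf2 was at 68.0 and 86.1 CPM in Phf8-KO tumors and 59.4 CPM in TRAMP. Of the neural members, Celf4 was at 7.62 and 3.71 CPM in Phf8-KO tumors and 7.37 CPM in TRAMP, with Phf8-KO1 level with TRAMP. Celf5 had 21 and 30 counts in the Phf8-KO pools and 4 in TRAMP, the opposite order to Celf3 (log2 fold change 2.58, standard error 1.03, edgeR adjusted p = 0.22). Celf6 had 10 and 9 counts in the Phf8-KO pools and 23 in TRAMP. Celf3 took 0.794% and 0.475% of the summed Celf level per kb in the Phf8-KO pools and 7.78% in TRAMP, while Celf1 took 65.7% and 63.3% against 59.9%. Celf1 and Celf2 together made up most of the family's level in each library.

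RBFOX2 binds the RNA word UGCAUG and acts in epithelial, mesenchymal, muscle and neuronal cells. Rbfox2, on chromosome 15 from 77078990 to 77307004, was at 53.2 and 54.8 CPM in Phf8-KO tumors and 32.8 CPM in TRAMP. The Phf8-KO pools lay above TRAMP and differed from each other by less than counting error (ratio of Phf8-KO2 to Phf8-KO1 1.03, interval 0.961 to 1.11). The log2 fold change was 0.72 (standard error 0.19, edgeR adjusted p = 0.13), with an adjusted p of 0.084 to 0.15 over 8 alternative tests. Rbfox1, a paralog of neurons and striated muscle, was at 1.01 and 0.694 CPM in Phf8-KO tumors and 2.60 CPM in TRAMP (log2 fold change -1.60, standard error 0.67). Beside it, the 10 skeletal muscle markers summed to 73.6 and 11.3 CPM in Phf8-KO tumors and 1600 CPM in TRAMP. EdgeR called 5 of these 10 lower, against 0.0384% of all genes called. The peripheral neuron markers also had lower sums, at 15.4 and 4.50 CPM against 27.2 CPM in TRAMP. So did the neuroendocrine markers, at 46.1 and 26.7 CPM against 172 CPM. The part of these cell types in the Rbfox1 value was not tested.

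Rbfox3, the gene of the neuronal nuclear antigen NeuN, separated the Phf8-KO pools from each other. It had 494 counts in Phf8-KO1, 60 counts in Phf8-KO2 and 13 counts in TRAMP, or 18.5, 1.81 and 0.450 CPM. Both Phf8-KO pools lay above TRAMP, with Phf8-KO2 at 0.0977 of Phf8-KO1 (95% counting interval 0.0734 to 0.128). The log2 fold change was 4.48 with a standard error of 1.85 (edgeR adjusted p = 0.23), and DESeq2 called it higher. In the same libraries the 10 smooth muscle markers summed to 5520 CPM in Phf8-KO1, to 452 CPM in Phf8-KO2, and to 727 CPM in TRAMP. The neuroendocrine and peripheral neuron markers, given above with Celf3, had lower sums in Phf8-KO1 and Phf8-KO2 than in TRAMP. The part of these cell types in the Rbfox3 value was not tested. As a share of the summed Rbfox level per kb, Rbfox3 reached 42.3% in Phf8-KO1 and 6.58% in Phf8-KO2, against 2.49% in TRAMP, and Rbfox2 took 55.3% and 90.8% against 82.7%.

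**Figure D3:**
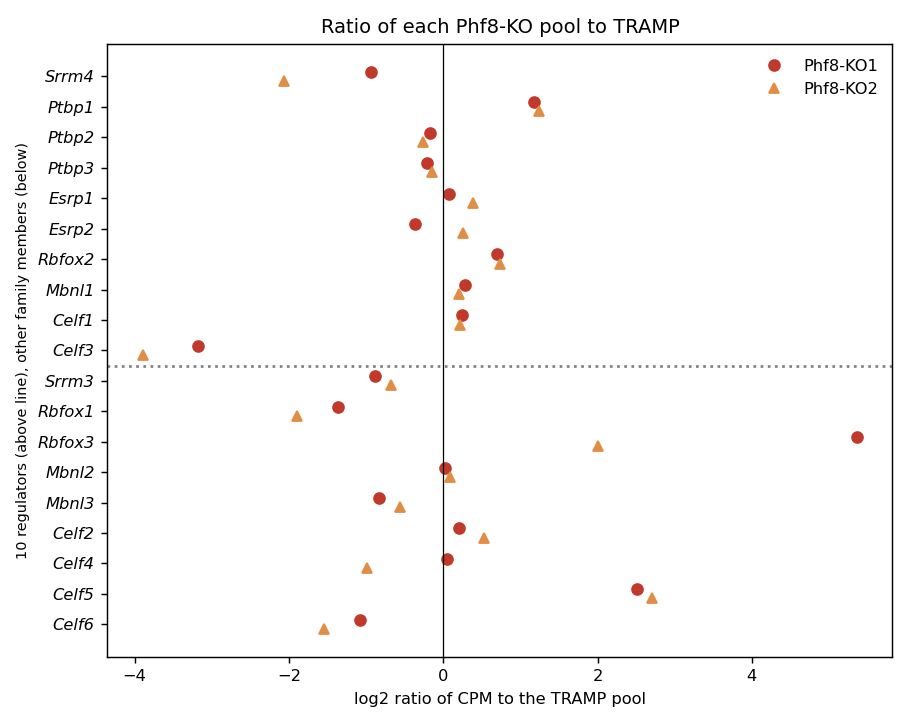
Log2 ratio of the CPM in Phf8-KO1 (circles) and Phf8-KO2 (triangles) to the TRAMP pool for the 10 regulators (above the dotted line) and 9 other members of their families (below it), with no error bars. Celf3 lies at -3.18 and -3.89, and Rbfox3 at 5.36 in Phf8-KO1 and 2.01 in Phf8-KO2.

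MBNL1 drives the change from fetal to adult exons in muscle and other tissues. Mbnl1, on chromosome 3 from 60472830 to 60629750, was at 141 and 134 CPM in Phf8-KO tumors and 116 CPM in TRAMP. Its values lay just above TRAMP (log2 fold change 0.24, standard error 0.18, edgeR adjusted p = 0.44), with a ratio to TRAMP of 1.18 (95% counting interval 1.13 to 1.23). Mbnl2 was at 194 and 204 CPM in Phf8-KO tumors and 191 CPM in TRAMP, while Mbnl3, on the X chromosome, was at 32.6 and 39.6 CPM against 58.2 CPM. Mbnl3 lay below TRAMP in both pools (log2 fold change -0.69, standard error 0.21, edgeR adjusted p = 0.16). Of the summed Mbnl level per kb, Mbnl3 took 10.5% and 12.4% in the Phf8-KO pools and 18.6% in TRAMP, and the sum itself differed little, at 66.8 and 68.9 CPM per kb against 67.4. Of 6 listed genes with exons that PTBP1, MBNL or CELF proteins regulate, 0 were called by edgeR, with 0 at an unadjusted p under 0.05 and 0 by DESeq2. The glycolytic enzyme gene Pkm, whose alternative exons PTBP1 selects, was at 998 and 1590 CPM in Phf8-KO tumors and 699 CPM in TRAMP, and Dlg4, a synaptic scaffold gene, at 0.788 and 0.724 CPM against 0.277 CPM.

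ESRP1 and ESRP2 are the epithelial splicing regulators, and both genes were abundant in every library. Esrp1, on chromosome 4 from 11331933 to 11386783, was at 145 and 178 CPM in Phf8-KO tumors and 138 CPM in TRAMP. Phf8-KO1 lay close to TRAMP and Phf8-KO2 above it (log2 fold change 0.23, standard error 0.23, edgeR adjusted p = 0.54). Esrp2, on chromosome 8 from 106130319 to 106136974, was at 63.1 CPM in Phf8-KO1 but 96.7 CPM in Phf8-KO2, with TRAMP between them at 81.0 CPM. Its log2 fold change was -0.02 (standard error 0.32, edgeR adjusted p = 0.97). Its sign turned when counts were scaled by library size alone (0.0641) and without a filter on low counts (0.0031). Of the members with over 100 counts in each library, Esrp2 was the least alike in the Phf8-KO pools, with a ratio of Phf8-KO2 to Phf8-KO1 of 1.53 (95% counting interval 1.44 to 1.63), and Esrp1 followed at 1.23 (1.18 to 1.28). Per kb, Esrp1 was 2.10 and 1.69 times Esrp2 in the Phf8-KO pools and 1.55 times Esrp2 in TRAMP. Esrp2 shares exonic bases with Nfatc3 and 1810019D21Rik on the opposite strand, which had at least 522 counts in each library.

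Epithelial markers are given beside the Esrp genes because ESRP proteins are made in epithelial cells. The 8 markers summed to 7610 and 6950 CPM in Phf8-KO tumors and 5030 CPM in TRAMP, and all 8 had counts in each library. Cldn7 had only 16 and 34 counts in the Phf8-KO pools and 12 in TRAMP, and with the counting of shared reads not given in the sources used here, these may understate the gene. EdgeR called 0 of these 8, with 3 higher at an unadjusted p under 0.05, against 14.9% of all genes. DESeq2 called 4 higher, against 9.42% of the genes it tested. In both pools 7 lay above TRAMP, against 40.8% of all genes. The tight junction gene Cldn3 was at 141 and 177 CPM in Phf8-KO tumors and 50.01 CPM in TRAMP, Cldn4 at 325 and 449 CPM against 127 CPM, and the cadherin gene Cdh1 at 921 and 1190 CPM against 516 CPM. For each 1000 counts of the 8 markers, Esrp1 had 19.1 and 25.7 counts in the Phf8-KO pools and 27.3 in TRAMP. Esrp2 had 8.30 and 13.9 counts against 16.1 by the same measure. On this scale both genes lay below TRAMP in both Phf8-KO pools, more so in Phf8-KO1. That order depends on the markers chosen and is not a level per epithelial cell. Krt19, the largest of the 8 in both Phf8-KO pools, was at 2500 and 1760 CPM there against 1010 CPM in TRAMP. Krt18 went the other way, at 1310 and 1350 CPM against 1560 CPM. The part of the epithelial share in the Esrp values was not tested.

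Genes that ESRP proteins are known to splice lay above TRAMP in both Phf8-KO pools, against 40.8% of all genes, though Enah was level with TRAMP in Phf8-KO1. Of the 4 listed, 0 were called by edgeR. In that test 3 were higher at an unadjusted p under 0.05, against 14.9% of all genes. DESeq2 called 2 higher, against 9.42% of the genes it tested. The median log2 fold change was 0.88 against 0.01 over all genes. The hyaluronan receptor gene Cd44 was at 202 and 166 CPM in Phf8-KO tumors and 45.5 CPM in TRAMP (log2 fold change 2.01, standard error 0.24, edgeR adjusted p = 0.10). Fgfr2, the growth factor receptor gene with an epithelial and a mesenchymal exon, was at 66.6 and 48.2 CPM against 28.1 CPM. Ctnnd1, which encodes p120 catenin, was at 386 and 410 CPM against 241 CPM. The fourth gene, Enah, was at 177 and 197 CPM against 176 CPM. These are whole-gene levels, and the share of epithelial exons in them was not measured.

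Transcription factors that act on Esrp genes or the epithelial state gave no common direction. Of 8 listed, 0 were called by edgeR and 0 by DESeq2. In edgeR's test 1 was lower at an unadjusted p under 0.05, against 12.2% of all genes. Zeb2, a repressor of epithelial genes, was at 7.73 and 6.85 CPM in Phf8-KO tumors and 16.2 CPM in TRAMP, whereas its paralog Zeb1 was at 24.8 and 16.1 CPM against 18.3 CPM. Snai2, another repressor of the epithelial state, was at 2.74 and 4.17 CPM against 1.07 CPM, and Snai1 was at 0.338 and 1.30 CPM against 0.173 CPM. Grhl2, which maintains epithelial genes, was at 163 and 164 CPM in Phf8-KO tumors and 140 CPM in TRAMP.

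Per kb of longest transcript, the order of the 10 regulators was much the same in the 3 libraries. Ptbp1, Ptbp3 and Esrp1 held the first 3 places in each, and Rbfox2, Celf3 and Srrm4 the last 3 in that order. Between these groups stood Esrp2, Mbnl1, Celf1 and Ptbp2, at 11.4 to 27.3 CPM per kb over the 3 libraries. Celf3 was ninth everywhere, at 0.234 and 0.144 CPM per kb in the Phf8-KO pools and 2.13 CPM per kb in TRAMP. In TRAMP, Ptbp1 and Ptbp3 were level, and no other pair of neighbours was so close. Ptbp3 and Esrp1 changed places between the Phf8-KO pools, as did Esrp2 with Mbnl1 and Celf1, so these neighbours did not differ beyond the spread of the pools. With the union of exons as the length, Mbnl1 was sixth in each library and Ptbp3 was first in TRAMP.

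Other factors of splicing give a frame for these values. Of 5 further epithelial or mesenchymal splicing factors, 0 were called by edgeR. In that test 2 were higher at an unadjusted p under 0.05, against 14.9% of all genes. DESeq2 called 1 higher, against 9.42% of the genes it tested. Khdrbs1, which encodes the signalling RNA-binding protein SAM68, was at 51.5 and 48.6 CPM in Phf8-KO tumors and 24.7 CPM in TRAMP. Rbm47, a regulator of epithelial cells, was at 85.9 and 112 CPM against 50.7 CPM, and Qk, the quaking gene, at 42.7 and 42.6 CPM against 36.5 CPM. Of 7 further neural RNA-binding proteins, 6 were tested, 0 were called by edgeR, with 0 at an unadjusted p under 0.05 and 0 by DESeq2. Nova1 was at 3.98 and 5.16 CPM in Phf8-KO tumors and 7.30 CPM in TRAMP, Khdrbs3 at 22 and 20 CPM against 13.7 CPM, and Elavl4 at 4.80 and 4.01 CPM against 5.92 CPM. Their median log2 fold change was 0.04.

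General splicing factors had medians near that of all genes. Counts of higher genes below stand against 14.9% of all genes at an unadjusted p under 0.05 in edgeR's test. For DESeq2 the share called higher was 9.42% of the genes it tested. Of 13 SR proteins 0 were called by edgeR, with 1 higher at an unadjusted p under 0.05 and 0 called by DESeq2, and a median log2 fold change of -0.18. Srsf9 was at 34.5 and 40.0 CPM in Phf8-KO tumors and 19.7 CPM in TRAMP, and Srsf5 at 414 and 476 CPM against 737 CPM. Of 16 hnRNP genes edgeR called 0, with 2 higher at an unadjusted p under 0.05 (Hnrnpd and Hnrnpl), 0 by DESeq2 and a median of 0.17. Hnrnpl, whose protein often acts on the same exons as PTBP1, was at 229 and 274 CPM in Phf8-KO tumors and 142 CPM in TRAMP. Of 20 core spliceosome genes edgeR called 0, with 5 higher at an unadjusted p under 0.05, 3 called higher by DESeq2 (Sf3a1, U2af2 and Eftud2) and a median of 0.11. U2af2, which reads the polypyrimidine tract that PTBP1 also binds, was at 183 and 202 CPM in Phf8-KO tumors and 90.9 CPM in TRAMP. Srsf1, Sf1 and Snrpc, which all cells use, were counted at 0.969 to 8.07 CPM. The sources used here do not give the annotation or how reads shared by overlapping genes were counted, so these counts may understate the genes and are not read as levels.

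The libraries held 26747443 and 31876182 counts in the Phf8-KO pools and 29954020 counts in TRAMP. Phf8 itself was at 15 and 15.9 CPM in Phf8-KO tumors and 19.4 CPM in TRAMP, and a whole-gene count does not check the knockout, since the sources used here do not give the deleted part. Over all genes tested, the median distance between the Phf8-KO pools was 0.31 on the log2 scale and 17.5% lay over 2-fold apart. Besides the neural, smooth muscle and skeletal muscle markers given above, the 6 adipocyte markers summed to 19.5 and 30.8 CPM in Phf8-KO tumors and 655 CPM in TRAMP, the 6 leukocyte markers to 197 and 78.1 CPM against 503 CPM, and the 7 seminal vesicle markers to 1440 and 2100 CPM against 116 CPM. Their part in the values of the 10 regulators was not tested.

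**Figure D4:**
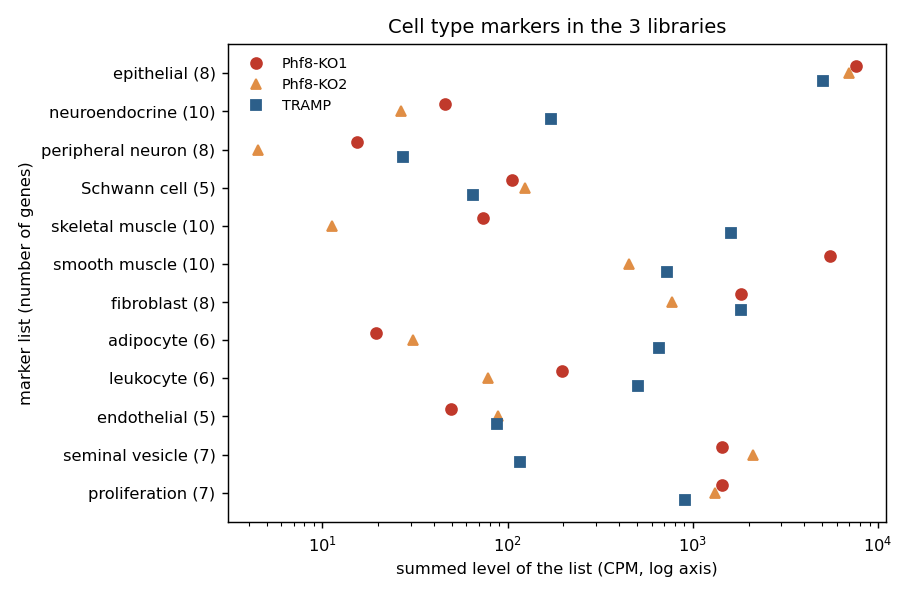
Summed level in CPM (log axis) of 12 lists of cell type markers in Phf8-KO1 (circles), Phf8-KO2 (triangles) and TRAMP (squares), with the number of genes in brackets. Epithelial markers lie between 5030 and 7610 CPM, and smooth muscle markers at 5520 CPM in Phf8-KO1, 452 CPM in Phf8-KO2 and 727 CPM in TRAMP.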

How the data were processed

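Total RNA of prostate tumors was sequenced in 2 Phf8-KO pools and 1 TRAMP pool. The authors filtered the reads, aligned them to GRCm38 with HISAT2, obtained counts per gene with HTSeq and deposited these raw counts. Versions, annotation release, strand setting and the treatment of reads shared by overlapping genes are not given in the sources used here, so reads of genes that overlap on opposite strands cannot be told apart.

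The counts were scaled by TMM, filtered with filterByExpr and tested with edgeR's quasi-likelihood test (edgeR 4.0.16, limma 3.58.1, DESeq2 1.42.0, R 4.3.3). The tests were also run on simulated counts drawn at edgeR's own trended dispersion. Such counts cannot show how well a test holds in pools like these. The TRAMP pool is single, so spread was estimated between the Phf8-KO libraries, with 1 residual degree of freedom. The standard error is the log2 fold change divided by the root of F. Counting intervals (exact, 95%) cover counting error only. At these depths 3 counts equal 0.113, 0.0905 and 0.104 CPM in Phf8-KO1, Phf8-KO2 and TRAMP. Gene positions and lengths are from GENCODE vM21 (GRCm38), Qki is listed as Qk, and promoters are from RefSeq. DESeq2, the test of the study's methods, was an alternative, as were limma-voom, other scalings and filters, the quasi-likelihood test without its legacy setting, no fold threshold, and each Phf8-KO pool left out. The members and lists were chosen with earlier results of these data known. All members and family members are named, and of other lists up to 3 genes with the smallest p. Zeb1, Grhl2, Enah, Cldn7, Krt18, Krt19, Top2a, Srsf1, Sf1 and Snrpc were named after their values were seen. Some genes that this rule takes in are not reported here.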

Additional observations from a re-analysis of the deposited data

How the results depend on the processing

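For the 10 regulators there were 99 values under the alternatives. Of these, 93 kept their direction and their side of the thresholds or moved less than the spread between the Phf8-KO pools. The values with 1 Phf8-KO pool left out are all among the 93. Each rests on the remaining pool, so it was bound to move less than that spread and does not show stability. Ptbp1 and Celf3 passed with DESeq2 and with edgeR without a filter on low counts, so that 1 member was lower and 1 higher under each of these, against 0 and 0 in the report. Esrp2 reversed with scaling by library size only (0.0641) and without a filter (0.0031). With Phf8-KO1 left out, Esrp2 was at 0.26 against -0.02 in the report, a change of sign that is still counted among the 93. Over all genes, edgeR's quasi-likelihood test called 7 lower and 0 higher. Scaling by library size only gave 19 lower and 1 higher, no filter 856 lower and 1430 higher, DESeq2 747 lower and 1533 higher, while limma-voom and a mean CPM of at least 1 gave 0 in both directions. The cause was not tested. Upper quartile scaling moved the median of all genes by -0.15 on the log2 scale, and Mbnl1 and Celf1, at 0.10 and 0.08 under it, stayed above 0. Srrm4 was left out by a mean CPM of at least 1. With 1 Phf8-KO pool left out, no degree of freedom remained, so only fold changes were computed: Celf3 lay between -3.89 and -3.18 and Ptbp1 between 1.17 and 1.24. Ratios per kb depend on the length used and are not among the 99 values. With the union of exons as the length, every computed ratio between 2 genes of a family left its counting interval. No paired analysis was possible because TRAMP has a single library. Counts of Srrm4 (29 or fewer) limit its precision.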
